A study of Mus musculus with 33 samples.

Results

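The 10 glutamate receptor genes described here are 5 NMDA receptor genes (Grin1, Grin2a, Grin2b, Grin2c and Grin2d), 3 AMPA receptor genes (Gria1, Gria2 and Gria4) and 2 kainate receptor genes (Grik1 and Grik2). They were given as a list of names, with no measured value as the rule of choice, but the list was made with earlier results of these data known. All 10 matched among the 20665 protein-coding genes that the RefSeq annotation of GRCm38.p6 places on chromosomes 1 to 19. The study mapped dimethylated lysine 9 of histone H3 (H3K9me2) and Lamin B1, a protein of the nuclear lamina, by CUT&RUN, which releases the DNA bound by an antibody, in embryonic stem cells of the mouse (mES cells) and whole hearts and right forebrain lobes of E11.5 embryos. All material was wild-type C57BL/6. The mES cells are an established line that was moved from feeder cells to medium with LIF and the inhibitors PD0325901 and CHIR99021, and each tissue replicate was pooled from the embryos of separate litters. Of the 33 libraries, each source has 3 for H3K9me2 and 3 for Lamin B1, and the IgG control has 6 in heart, 6 in forebrain and 3 in mES cells. The values below come from 9 deposited domain lists, 3 per source, which name stretches of the genome as lamina-associated domain (LAD), KOD or open, in bins of 10 kb. KOD is the depositors' label, which the sources used here do not spell out. Bases in none of the lists of a source are called in no list.

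Each list stands for all libraries of a source. The depth behind a domain is unknown, no value has a replicate error, and no difference between sources was tested. A tissue is a mixture of cells, so a state held by some of its cells cannot be told apart from a weaker one held by all. Expression was not measured, and the source labels could be set only against domain states. Of 6 heart markers 4 were open in heart, compared with 1 in mES cells and 2 in forebrain. Of 6 pluripotency markers 4 were open in mES cells, 4 in the heart and 5 in the forebrain, and of 6 forebrain markers 3 were open in forebrain, 3 in mES cells and 5 in heart. Of all protein-coding genes 63.6%, 58.0% and 57.4% were open in mES cells, heart and forebrain. The difference among heart markers rests on Myh6, Myh7 and Tnnt2, while Nkx2-5, Tbx5 and Actn2 had the same state in every source. These counts were not tested, and with 6 markers a set they do not clearly tell the sources apart.

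Glutamate is the main fast excitatory transmitter of the brain, and these genes encode the subunits of its ion channels. AMPA receptors carry most of the fast current, NMDA receptors let in calcium when glutamate and depolarization coincide, and kainate receptors tune release and excitability. LADs are long stretches of chromatin at the nuclear envelope, mostly poor in genes, and H3K9me2 is a mark of repressed chromatin that is enriched there. Neuronal genes with long introns are common in such stretches in many cell types.

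A gene is given the state with the greatest share of its body. By that measure the family was spread over all states. LADs held 4 of the 10 genes in mES cells (Gria2, Gria4, Grik1 and Grik2), 4 in heart (Grin2b, Gria4, Grik1 and Grik2) and 5 in forebrain (those 4 and Gria2). Of all protein-coding genes, 16.5%, 14.2% and 16.5% were LAD in mES cells, heart and forebrain. KOD held Grin2a, Grin2b and Gria1 in mES cells and Grin2a and Gria1 in both tissues, against 12.9%, 17.8% and 18.9% of all genes in mES cells, heart and forebrain. The same 3 genes, Grin1, Grin2c and Grin2d, were open in every source, against 63.6%, 58.0% and 57.4% of all genes. Gria2 in heart was the 1 case in no list, a class that held 7.05%, 9.99% and 7.21% of all genes in the same order. For 8 of the 10 genes the state was the same in the 3 sources, as it was for 62.6% of all genes and for 52.6% of those of at least 100 kb.

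**Figure D1:**
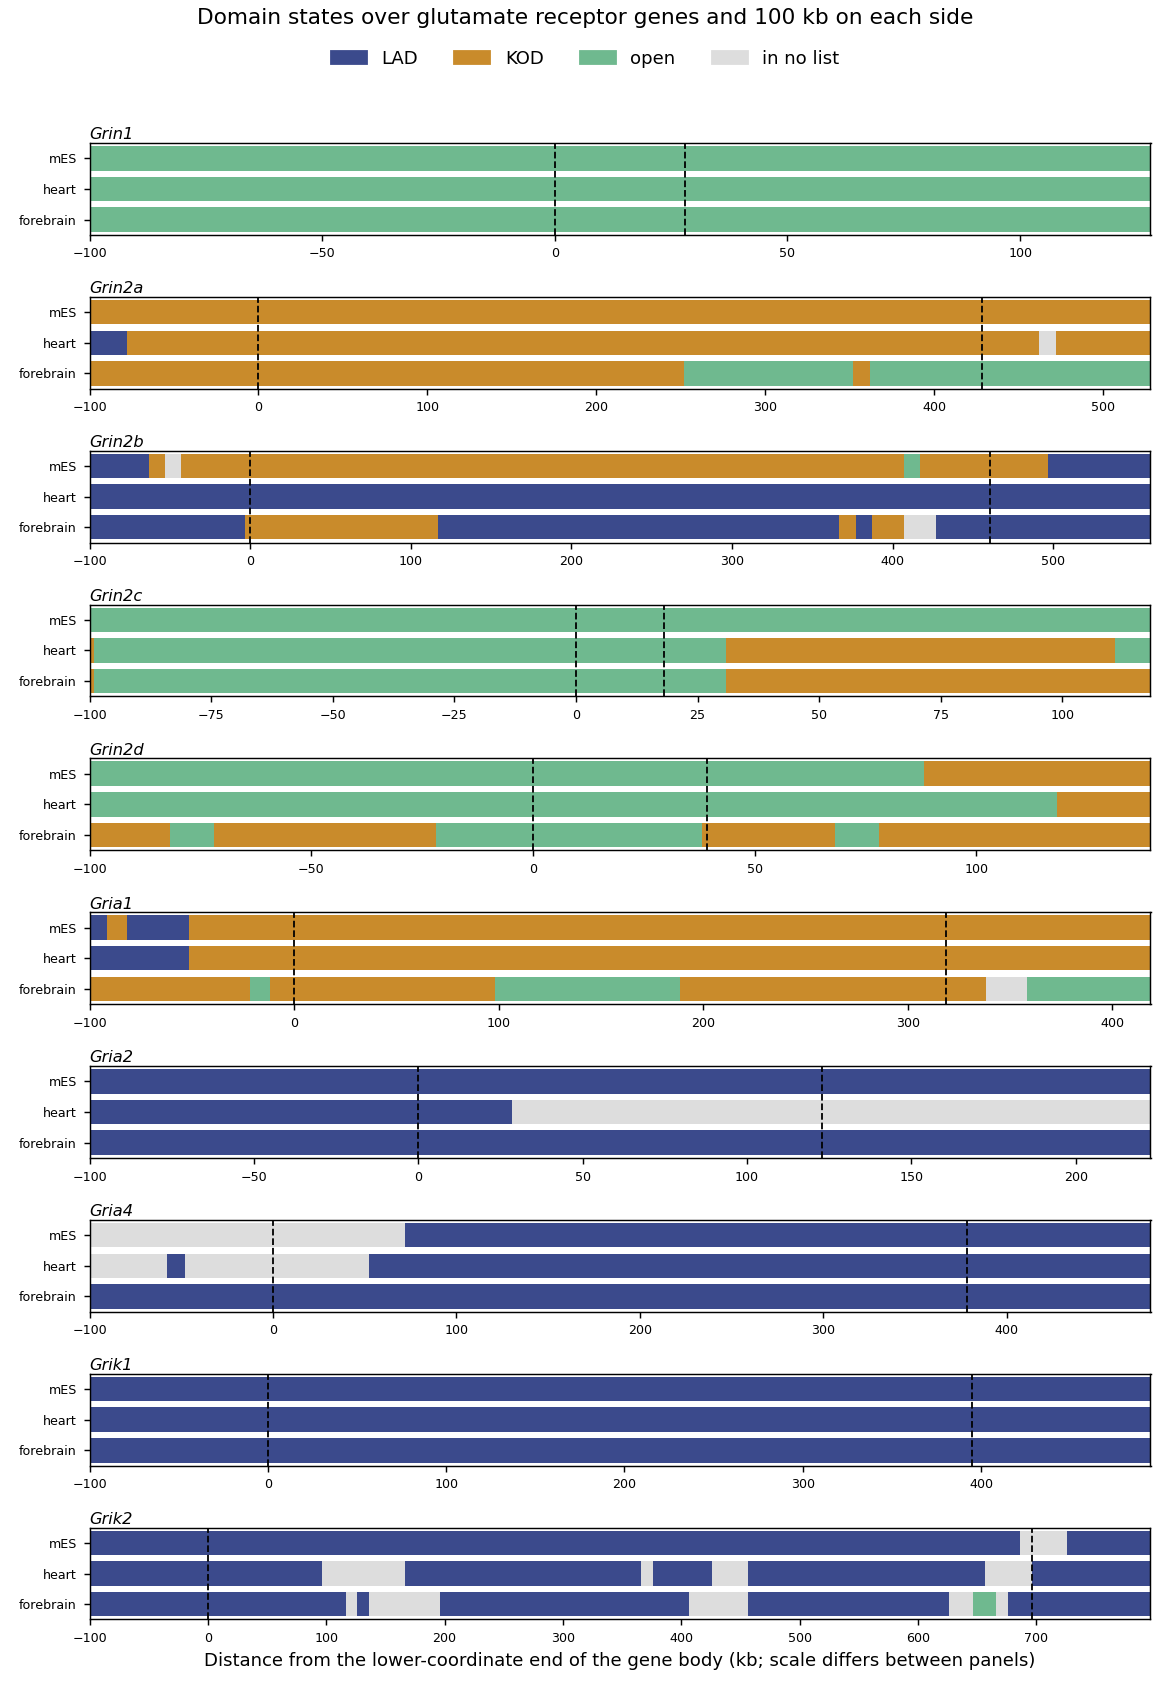
Domain states over each receptor gene and 100 kb on each side, with 1 row per source (mES, heart, forebrain) and distance from the lower-coordinate end of the gene in kb on the x axis; dashed lines mark the gene's ends and the scale differs between panels. Grin1 and Grik1 are 1 colour throughout, Grin2a and Gria1 hold open stretches in forebrain, and Grin2b is KOD in mES cells, LAD in the heart and mixed in the forebrain.

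Where the starts of these genes lie was read from the RefSeq promoter table (GRCm38.p6), which held a start for 6 of the 10, all on the minus strand. The 250 bases before the start are printed for Grin1, as the open case, and for Gria2, Gria4 and Grik2, whose bodies were mostly LAD in mES cells, because the capitals, which mark each CpG, show how CpG-dense these LAD genes are at their starts.
Grin1, chr2:25319188-25319437, minus strand: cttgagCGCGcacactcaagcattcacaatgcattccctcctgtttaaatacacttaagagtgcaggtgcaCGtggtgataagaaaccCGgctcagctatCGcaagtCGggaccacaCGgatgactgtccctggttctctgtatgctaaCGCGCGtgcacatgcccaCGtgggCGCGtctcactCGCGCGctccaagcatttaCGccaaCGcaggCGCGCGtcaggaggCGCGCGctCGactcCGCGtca
Gria2, chr3:80802836-80803085, minus strand: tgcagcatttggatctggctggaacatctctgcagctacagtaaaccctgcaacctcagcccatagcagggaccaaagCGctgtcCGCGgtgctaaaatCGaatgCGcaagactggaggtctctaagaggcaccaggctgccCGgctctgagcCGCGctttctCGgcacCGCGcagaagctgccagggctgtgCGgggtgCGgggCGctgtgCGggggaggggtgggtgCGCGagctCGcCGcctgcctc
Gria4, chr9:4796235-4796484, minus strand: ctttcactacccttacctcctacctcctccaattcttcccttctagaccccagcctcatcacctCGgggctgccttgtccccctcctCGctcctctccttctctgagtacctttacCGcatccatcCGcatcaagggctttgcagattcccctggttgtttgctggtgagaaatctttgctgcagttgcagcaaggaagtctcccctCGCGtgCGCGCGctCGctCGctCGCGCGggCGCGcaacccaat
Grik2, chr10:49788755-49789004, minus strand: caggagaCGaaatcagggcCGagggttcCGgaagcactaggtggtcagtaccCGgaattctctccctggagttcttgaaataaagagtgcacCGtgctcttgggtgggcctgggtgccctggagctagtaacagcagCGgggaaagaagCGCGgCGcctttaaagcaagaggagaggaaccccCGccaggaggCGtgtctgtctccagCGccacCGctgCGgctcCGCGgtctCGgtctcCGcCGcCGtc

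The Grin1 stretch holds 27 CpGs, more than 88.5% of the 20085 starts listed for protein-coding genes on chromosomes 1 to 19. Gria2 has 19, Gria4 has 16 and Grik2 has 20, and Grin2c and Grin2d, which are open, have 15 and 9. The median over all starts was 10. Among starts that lay in a LAD the median was 1 in mES cells, 1 in the heart and 2 in the forebrain. There 16 CpGs or more were present in 6.45%, 5.46% and 8.03% of them. The cut of 16 is the lowest count among Gria2, Gria4 and Grik2, so all of these reach it by construction. Among starts in no list the median was 7, 6 and 7 in the same order, and 30.1%, 24.5% and 28.0% held 16 or more. The Gria4 start, at position 4796234, lay in a LAD in all sources. The start of Gria2, at 80802835, was LAD in mES cells and forebrain and in no list in heart. That of Grik2, at 49788754, was in no list in mES cells and heart and LAD in forebrain, although the body of Grik2 was mostly LAD in all. The GC box GGGCGG, searched on both strands, was found 3 times before Grin2c and not in these letters before the other 5, and 43.4% of all such stretches held it.

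Grin1, Grin2c and Grin2d formed the open group. Grin1 encodes GluN1, the subunit that every NMDA receptor needs. It lies on chromosome 2 from 25291177 to 25319187, and 100% of its body and of both flanks of 100 kb was open in mES cells, heart and forebrain. The open domain around it was 270 kb in mES cells and 480 kb in each tissue, with 23, 37 and 39 other genes wholly inside in mES cells, heart and forebrain. No other member had as many neighbours, with 22 protein-coding genes in its flanks, all of them open in every source.

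Grin2c, the GluN2C subunit of the adult cerebellum (chromosome 11, 115249169 to 115267297), was also open over 100% of its body in every source, but its surroundings differed between sources. In mES cells it sat inside an open domain of 1590 kb with 62 other genes. In heart and forebrain that domain was 130 kb with the same bounds in both, 115150001 to 115280000, and it held 4 other genes. The upper flank, at higher coordinates, was 100% open in mES cells, 80.0% KOD in heart and 87.3% KOD in forebrain. Of the neighbours there, Fdxr, a mitochondrial ferredoxin reductase, was open in all sources, and Fads6 and Otop2 were open in mES cells only and KOD in heart and forebrain. Grin2c therefore lay 12.7 kb from a KOD border in heart and forebrain, about the width of 1 bin.

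Grin2d encodes GluN2D, an NMDA subunit of the early brain (chromosome 7, 45831883 to 45871194). It was 100% open in mES cells and heart and 97.0% open in forebrain, where the remaining 3.04% at its upper end was KOD. The open domain around it was 600 kb in mES cells, 290 kb in the heart and 60 kb in the forebrain. KOD made up 68.1% of the lower and 90.0% of the upper flank in forebrain. In mES cells it took 0% and 51.2%, and in heart 0% and 21.2%. Kdelr1, Syngr4 and Tmem143, the nearest genes above, were open in mES cells and heart and KOD in forebrain, and Grwd1, Kcnj14 and Cyth2, the nearest below, were open in all. The open call of Grin2d in forebrain rests on that 60 kb domain: without domains under 100 kb, or with 20 kb trimmed from each domain end, no list held most of the gene there.

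Grin2a and Grin2b, the long NMDA genes, were both KOD in mES cells and differed from each other in the tissues. Grin2a encodes GluN2A, which becomes common after birth (chromosome 16, 9567901 to 9996083, 428 kb). It was 100% KOD in mES cells, inside a KOD of 1190 kb with no other gene wholly inside, and 100% KOD in heart, inside one of 540 kb. In forebrain it was 61.2% KOD and 38.8% open. The open bases lay in its upper part, from 9820001 to 9920000 and from 9930001 to past the gene, and the upper flank was 100% open in forebrain, 100% KOD in mES cells and 90.0% KOD in heart. The lower flank was 100% KOD in mES cells and forebrain, and 22.1% LAD in heart.

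Grin2b encodes GluN2B, the main GluN2 subunit before birth (chromosome 6, 135713221 to 136173615, 460 kb). Its body was 97.8% KOD in mES cells, 0% KOD and 100% LAD in heart, and 31.9% KOD and 63.8% LAD in forebrain. The heart LAD ran unbroken over 980 kb from 135430001 to 136410000, with Eif4a3l1 as the only other protein-coding gene wholly inside. In forebrain the body was cut into 7 runs of state, compared with 3 in mES cells and 1 in heart. The forebrain KOD bases were the lowest 117 kb of the body, within a KOD from 135710001 to 135830000, and 2 pieces of 10 and 20 kb further up, the second ending at 136120000. All 147 kb that were KOD in forebrain were also KOD in mES cells, and the 20 kb from 136120001 to 136140000, of which the lower 10 kb was open in mES cells, were in no forebrain list. LADs already lay close by in mES cells, with 36.8% of the lower and 63.6% of the upper flank. In heart both flanks were 100% LAD, and in forebrain 96.8% and 100% were. Only 56 of all protein-coding genes, or 0.271%, shared the order KOD, LAD, LAD in mES cells, heart and forebrain, and 11 (0.476%) of the 2313 genes of at least 100 kb. For Grin2b that order rests on a mixed forebrain body. With 20 kb trimmed from each domain end its LAD share there was 48.6%, still the largest share.

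The AMPA receptor genes took 3 different courses. Gria1 encodes GluA1, a subunit of synaptic plasticity (chromosome 11, 57011571 to 57330244, 319 kb). Its body was 100% KOD in mES cells and in heart, in domains of 480 and 490 kb that start at the same base, 56960001. In forebrain 71.8% was KOD and 28.2% was open. The open part was a single stretch of 90 kb in the middle of the gene, 57110001 to 57200000, which holds the gene's midpoint, so that a call by midpoint makes Gria1 open in forebrain. Its lower flank was 38.4% LAD in mES cells and 48.4% in heart, and in forebrain it held no LAD and was 90.0% KOD. The upper flank was 100% KOD in mES cells and heart, and 60.2% open, 19.8% KOD and 20.0% in no list in forebrain.

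Gria1 and Grin2a thus had the same profile, wholly KOD in mES cells and heart and partly open in forebrain. This likeness was noticed in the maps. Among 80 genes of at least 100 kb that were wholly KOD in mES cells and heart, Gria1 and Grin2a included, 33.8% had at least 10% of the body open in forebrain. Over all lengths 20.9% of 1117 such genes did. An open part in forebrain was thus not particular to Gria1 and Grin2a. The cut of 10% is lower than their own open shares, 28.2% and 38.8%, and how many genes reach those was not counted. Neither gene has another protein-coding gene within 100 kb.

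Gria2 encodes GluA2, the subunit whose RNA editing keeps calcium out of AMPA channels (chromosome 3, 80681450 to 80804227, 123 kb). It was 100% LAD in mES cells and forebrain, with both flanks 100% LAD. In heart 23.3% was LAD and 76.7% was in no list. The heart LAD ended at 80710000, and from there to the end of the upper flank no list of the heart held a base. The lower flank was still 100% LAD in heart. Glrb, a glycine receptor subunit 39.4 kb above Gria2, had the same states, LAD in mES cells and forebrain and in no list in heart. The LAD around both was 1010 kb in mES cells and 2060 kb in forebrain. Of all genes 1.73% were LAD in mES cells and forebrain and in no list in heart, and 3.67% of genes of at least 100 kb. Bases in no list are not shown to be open, KOD or free of the lamina.

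Gria4 encodes GluA4, an AMPA subunit with fast kinetics (chromosome 9, 4417893 to 4796234, 378 kb). LADs covered 80.9% of it in mES cells, 86.2% in the heart and 100% in the forebrain, and the rest was in no list. The missing bases were all at its lower end, where the LAD began at 4490001 in mES cells, 4470001 in the heart and 3460001 in the forebrain. The lower flank was 0% LAD in mES cells, 10.0% in the heart and 100% in the forebrain, and the upper flank was 100% LAD in all. Msantd4 and Kbtbd3, in the lower flank, were in no list in mES cells and heart and LAD in forebrain. The forebrain LAD was 3530 kb long, compared with 2280 kb in mES cells and 2560 kb in heart.

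Both kainate members were LAD in every source. Grik1 encodes GluK1 (chromosome 16, 87895901 to 88290863, 395 kb), and 100% of its body and of both flanks was LAD in mES cells, heart and forebrain. The LAD around it was 1850 kb, 1970 kb and 1960 kb in mES cells, heart and forebrain, with lower borders within 20 kb of each other. Each of these held 60 other genes wholly inside, 24 of them Krtap genes of hair keratin-associated proteins and 2 Cldn genes of tight-junction claudins, symbols that were picked out after the domain was seen. No protein-coding gene lay within 100 kb of Grik1 itself.

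Grik2 encodes GluK2 and is the longest member (chromosome 10, 49093680 to 49790161, 696 kb). LADs covered 98.5% of its body in mES cells, 78.5% in the heart and 75.6% in the forebrain. The gaps were in no list, apart from a stretch of 20 kb, 49740001 to 49760000, that was open in forebrain and made up 2.87% of the body. The body was 2 runs of state in mES cells, 9 in the heart and 11 in the forebrain. Of the bases that were LAD in mES cells, 80 kb were in no list in either tissue, 70 kb were LAD in heart and in no list in forebrain, and 50 kb were the reverse. No protein-coding gene lay wholly inside any LAD that overlaps Grik2, which reached 2130 kb in mES cells, 2970 kb in the heart and 3500 kb in the forebrain.

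Measured over bases, the 10 bodies sum to 2885 kb. LADs covered 52.3% of the total in mES cells, 60.9% of it in heart and 59.5% of it in forebrain, and KOD 41.5%, 25.9% and 22.1%. Open bases made up 3.31%, 2.96% and 12.5%, and those in no list 2.85%, 10.3% and 5.89%. These shares are led by the long genes. Over the whole lists, LADs held 1046, 963 and 1057 Mb in mES cells, heart and forebrain. KODs held 421, 443 and 413 Mb, and open domains 762, 716 and 746 Mb. By bases LADs were thus the largest list in every source, unlike the count by genes. The larger open share of the forebrain came mostly from Grin2a (166 kb) and Gria1 (90 kb). The smaller KOD share of the heart came from Grin2b and that of the forebrain from Grin2b, Grin2a and Gria1. The unlisted share of the heart came from Grik2, Gria2 and Gria4. The bodies were cut into 14 runs of state in mES cells, 20 in the heart and 32 in the forebrain. Over the whole lists, the median LAD was 160 kb in mES cells, 90 kb in heart and 120 kb in forebrain. The median KOD was 80, 70 and 70 kb and the median open domain 140, 100 and 110 kb in the same order. These medians were thus shorter in both tissues than in mES cells, but they measure domain length and not runs within a body. Around the members, the LADs of Gria4 and Grik1 were longer in both tissues than in mES cells. The open domains around Grin2c and Grin2d were shorter in both.

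The share of each body with the same state in all 3 sources was also taken, with no list counted as a state. It was 100% for Grin1, Grin2c and Grik1 and 97.0% for Grin2d. For Gria4 it was 80.9%, for Gria1 71.8%, for Grik2 67.0% and for Grin2a 61.2%. Gria2, at 23.3%, and Grin2b, at 0%, were lowest. In Gria2 and Gria4 all bases that differed were LAD in some sources and in no list in others. The same held for Grik2 apart from the 20 kb open in forebrain. For these genes the share therefore reflects mainly bases in no list in some source, whose state there is unknown. It is no ranking by stability. Between mES cells and heart, Grin2b and Gria2 had another state by the largest share, against 26.2% of all genes. Between mES cells and forebrain it was Grin2b alone, against 28.4%, and between forebrain and heart Gria2 alone, against 22.7%. Among genes listed on both sides the change was 1 of 9, 1 of 10 and 0 of 9 members in the same order, against 19.6%, 22.6% and 15.2% of all genes. With 10 genes these counts lie too close to the background to set the family apart.

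**Figure D2:**
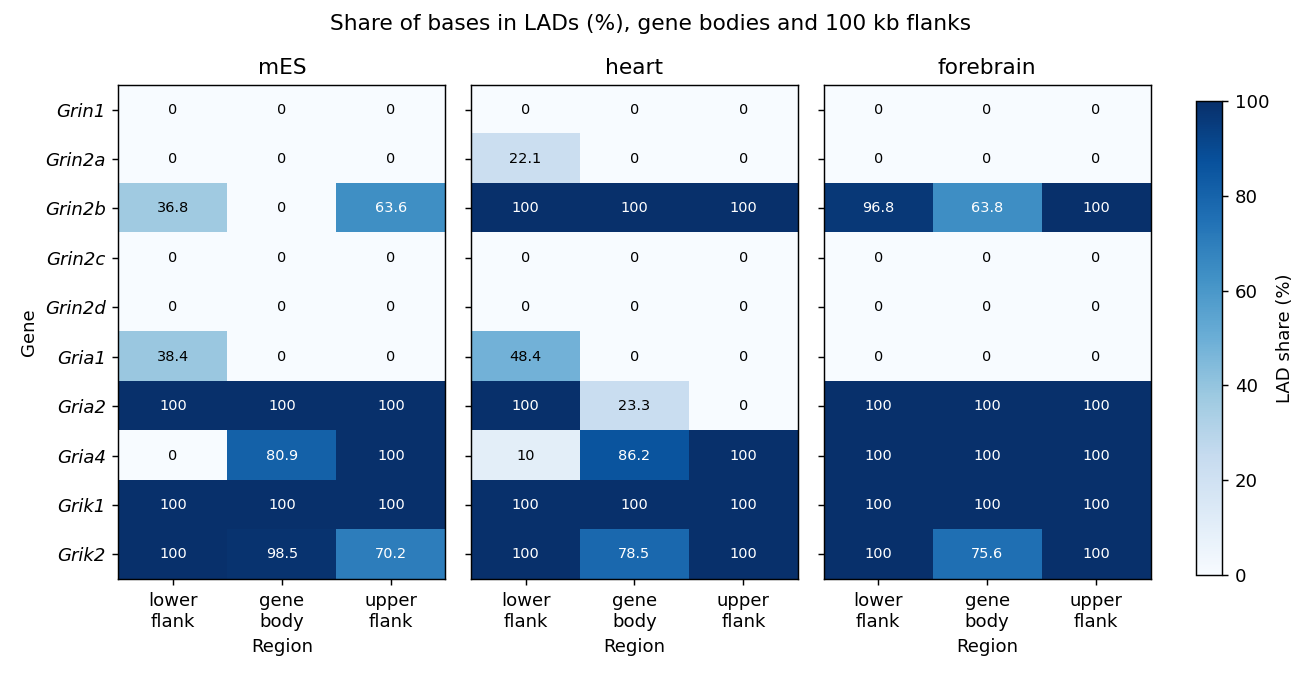
Share of bases in LADs, in percent, for the gene body and 100 kb on the lower- and higher-coordinate side of each receptor gene (rows), in mES cells, heart and forebrain (panels). Grik1 is 100% throughout, Grin1, Grin2c and Grin2d are 0% throughout, and Gria4 changes in its lower flank from 0% in mES cells to 100% in forebrain.

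Flanks show whether a gene shares its state with its surroundings. Of the 20 flanks, 6 were wholly LAD in mES cells, 8 in the heart and 9 in the forebrain, and 10, 11 and 10 held any LAD base. Their mean LAD share was 40.4%, 44.0% and 49.8%, compared with 23.1%, 21.9% and 26.7% for flanks of all genes of at least 100 kb and 17.5%, 16.2% and 18.6% for those of all genes. Among the flanks that differed from the body were those of Grin2b in mES cells, a KOD body between partly LAD flanks, of Grin2d in forebrain, an open body between mostly KOD flanks, and the upper flank of Grin2c in both tissues. Others were the upper flanks of Grin2a and Gria1 in forebrain, 100% and 60.2% open beside KOD bodies, the lower flank of Gria4 in mES cells and heart, 100% and 90.0% in no list beside a LAD body, and the lower flank of Gria2 in heart, 100% LAD beside a body mostly in no list. Gria1 in mES cells and heart had LAD on its lower side only. In all, 5 members had no other protein-coding gene within 100 kb (Grin2a, Grin2b, Gria1, Grik1 and Grik2), and Gria2 had 1 and Gria4 had 2. Grin2c and Grin2d had 10 each.

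Gene length ran along with state. The 3 open members are 18.1, 28.0 and 39.3 kb long (Grin2c, Grin1 and Grin2d), and the other 7 are from 123 to 696 kb long and were open in no source. Among all 2313 protein-coding genes of at least 100 kb, given here as mES cells, heart and forebrain in turn, 43.3%, 46.3% and 47.6% were open and 9.25%, 11.9% and 10.8% were in no list. LADs held 4, 4 and 5 of the 7 long members and 24.9%, 19.9% and 24.3% of genes of that length. KOD held 3, 2 and 2 of the 7 and 22.5%, 21.9% and 17.3% of such genes. Grin2b and Gria2, the members whose state differed between sources, are both in this class, in which the state differed for 34.4% of genes between heart and mES cells, for 34.4% between forebrain and mES cells and for 30.6% between the tissues. Among long genes listed on both sides these shares were 25.5%, 26.0% and 20.2%. In the class of 400 kb and more, which holds Grin2a, Grin2b and Grik2 among 338 genes, LADs held 58.3% of genes in mES cells, 48.5% in the heart and 51.8% in the forebrain, and KOD 24.3%, 20.7% and 19.5%. In the class of 200 to 400 kb, which holds Gria1, Gria4 and Grik1 among 607 genes, LADs held 30.8%, 22.7% and 30.6%. KOD held 28.0%, 23.1% and 16.6% of that class, and open domains 31.3%, 40.4% and 41.7%. Among the 4851 genes of 20 to 50 kb, the class of Grin1 and Grin2d, 74.3%, 65.2% and 65.6% were open. The 3 open receptor genes were thus in the commonest state of their lengths. Open was also the commonest single state of genes of 200 to 400 kb, where Gria1, Gria4 and Grik1 were KOD or LAD. In mES cells it led LAD narrowly there, and LAD and KOD together held more of that class than open in every source. The part of length in the states of the members was not tested.

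**Figure D3:**
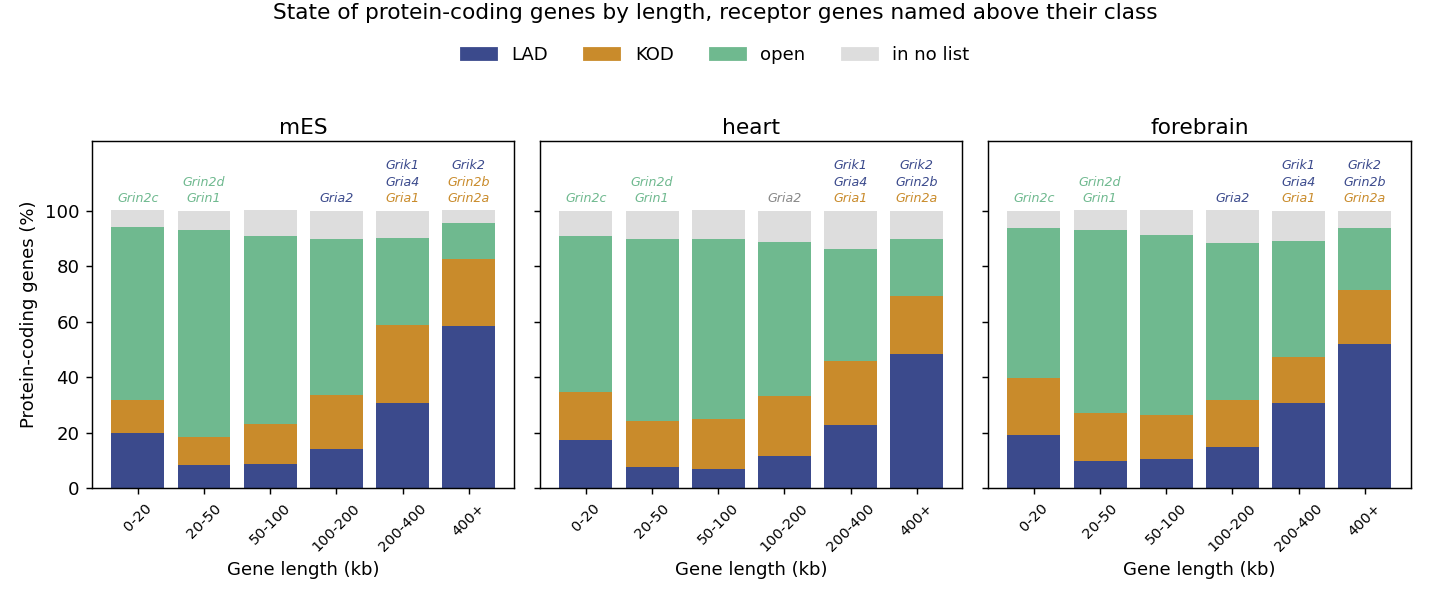
Percent of protein-coding genes in each state by gene length in kb (x axis) in mES cells, heart and forebrain, with the receptor genes written above their class in the colour of their own state. LADs hold 58.3%, 48.5% and 51.8% of the longest class, and the 3 receptor genes under 50 kb are open in every panel.

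Other genes of the glutamate synapse were counted from lists of names. The counts stand against all protein-coding genes, of which 62.6% had the same state in every source, and of which 63.6%, 58.0% and 57.4% were open and 16.5%, 14.2% and 16.5% LAD in mES cells, heart and forebrain. Of 6 further ionotropic receptor genes 2 were LAD in each source, and 2, 1 and 2 were KOD in mES cells, heart and forebrain. Grik3, a kainate receptor gene, was the 1 of these that differed between sources, 100% KOD in mES cells, 57.9% open in heart and 95.5% KOD in forebrain. Of the 8 metabotropic receptor genes, which signal through G proteins, the same number, 5, were LAD in each source. Grm4 and Grm6 were open in mES cells and forebrain and KOD in heart, over 52.1% and 100% of the body.

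Auxiliary subunits steer AMPA and kainate receptors to the synapse and set their gating. Of 14 genes, 6 were open in mES cells, 6 in the heart and 10 in the forebrain, against 63.6%, 58.0% and 57.4% of all genes. The same state was held in every source by 7 of the 14, and by 62.6% of all genes. Cacng4, a transmembrane AMPA receptor regulator, was 100% KOD in mES cells and heart and 92.5% open in forebrain. Cnih3 went the same way, with 90.8% open in forebrain. Cacng3 was 100% KOD in mES cells, 89.8% LAD in heart and 90.4% KOD in forebrain. Cacng5 was open in mES cells and forebrain and KOD in heart, over 100% of its body in each. Gsg1l was 88.9% KOD in mES cells, 90.2% open in heart and 65.7% open in forebrain.

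Among 13 postsynaptic scaffold genes 8 were open in mES cells, 9 in the heart and 9 in the forebrain, near the shares of all genes (63.6%, 58.0% and 57.4%). The state was the same in every source for 8 of the 13, near the 62.6% of all genes. Dlg4, which encodes the main scaffold PSD-95, was 80.5% open in mES cells and in heart and 100% KOD in forebrain. Pick1 was 100% open in mES cells, and both tissues had it 100% KOD. In mES cells KOD covered 62.9% of Homer2 and 77.5% of Grip2, which were open in heart and forebrain. Grip1, which binds AMPA receptors, was 94.1% KOD in mES cells, 85.2% KOD in heart and 96.8% open in forebrain.

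Of 7 glutamate transporter genes 2 were open in mES cells, 3 in the heart and 5 in the forebrain, against 63.6%, 58.0% and 57.4% of all genes. With no list counted as a state, 1 of the 7 had the same state in every source, against 62.6% of all genes. This difference was not tested. Only 4 of the 7 were listed in every source and differed, and the others that differed were in no list in some source. Slc1a3, the glial transporter GLAST, was 72.9% KOD in mES cells and 100% open elsewhere. Slc1a2, the glial transporter GLT-1, was 100% KOD in mES cells and 54.1% open in forebrain, and in heart it was 46.6% open and 45.9% KOD. Slc1a1, a neuronal transporter, was 100% KOD in mES cells and heart and 81.1% open in forebrain. Slc1a6 was 57.3% open in mES cells and 100% LAD in both tissues. None of these counts was tested, and the lists are short.

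**Figure D4:**
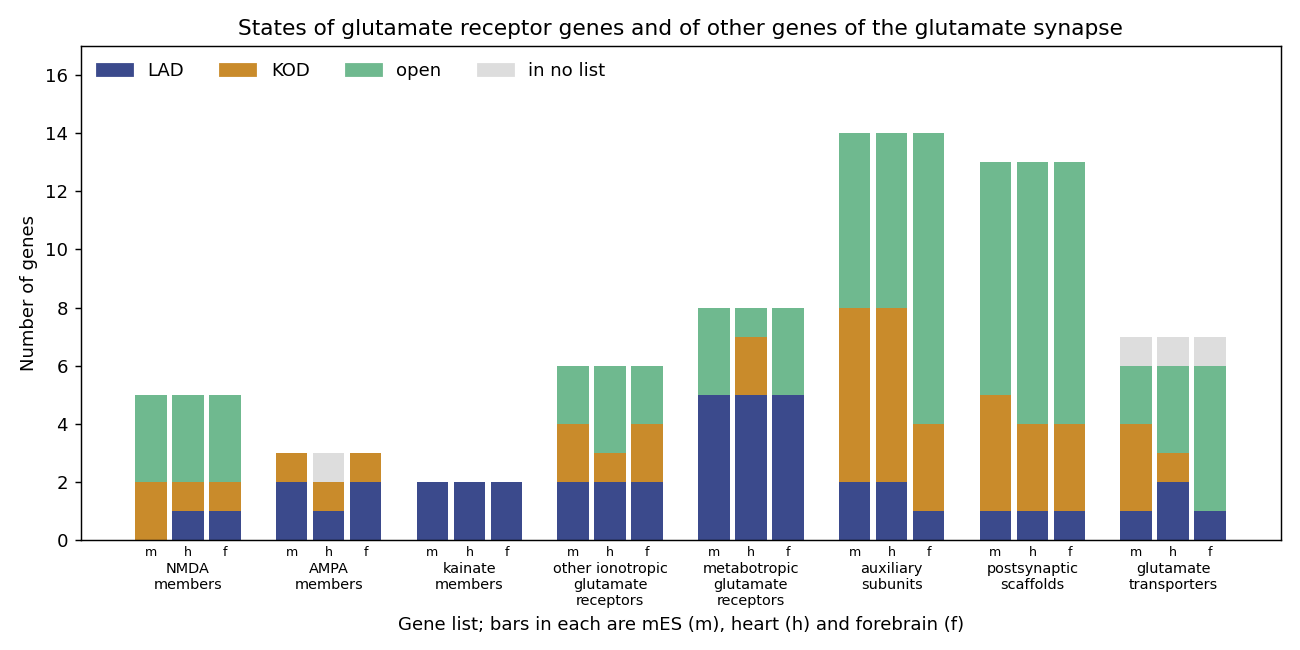
Number of genes in each state (y axis) in mES cells (m), heart (h) and forebrain (f) for the NMDA, AMPA and kainate receptor genes and for 5 lists of other glutamate synapse genes. The members Grik1 and Grik2 are LAD in each source, and open auxiliary subunits number 6, 6 and 10.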

How the data were processed

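H3K9me2, Lamin B1 and IgG libraries of mES cells, E11.5 heart and E11.5 forebrain were made by CUT&RUN. The submitters' processing notes name the build mm10 and the tools Bowtie2 2.5.0, cutadapt 4.2, Trim Galore, deepTools and Picard. The method and thresholds of domain calling, and the use of IgG in it, are not given in the sources used here. The authors deposited 9 lists of domain starts and ends with no score, in which starts are multiples of the bin of 10 kb. Each pools the libraries of a source, so depth and replicate error are unknown. The separate signal tracks that the labels name were not analysed here.

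Starts and ends were read as 1-based bases. Gene bodies came from RefSeq GRCm38.p6, the assembly behind mm10, and bases of each body and of 100 kb on each side were counted in LAD, KOD, open and no list with Python 3.11.15, with figures by matplotlib 3.10.9. The count was checked on simulated domains. Alternatives were the gene midpoint, a share of at least 50%, domain ends trimmed by 20 kb, domains under 100 kb left out, gaps of up to 20 kb filled, and flanks of 50 and 200 kb. Lists of other synapse genes and of markers were matched by symbol. Gria3 and Dlg3 lie outside chromosomes 1 to 19 and were not analysed here. All members are named. Neighbours within 100 kb (at most 3 a side) are named where the flank differs from the body or between sources, and list genes (at most 5) where they are listed in all sources and differ. Genes inside a domain were named after their values were seen. One further receptor gene is not reported here. The members and lists were chosen with earlier results of these data known.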

Additional observations from a re-analysis of the deposited data

How the results depend on the processing

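Of 12 counts of receptor genes (LAD, KOD and open in each source, and another state in each pair of sources), 9 stayed within 1.5 times with the state at the gene midpoint and 10 each with 20 kb trimmed from domain ends and with domains under 100 kb left out. All 12 did so with a share of at least 50% and with gaps of up to 20 kb filled. By midpoint Gria1 was open in forebrain, so 1 member was KOD there, and 2 members differed between the forebrain and mES cells and 2 between the tissues. With trimmed ends, and with short domains left out, Grin2d was in no list in forebrain, which made these counts 2 and 2 under each setting. The LAD share of the Grin2b flanks in mES cells was 13.6% over 50 kb and 32.5% over 200 kb. The state at the start of transcription was known for 6 members, so it gave no count. No paired analysis was possible because the replicates of a source are merged in its lists. Depth is unknown, a border is known to 1 bin, and the bodies of the short genes touch few bins, 3 each for Grin1 and Grin2c and 5 for Grin2d.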
